A study of Mus musculus with 4 samples.

Results

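*Mib1* (Entrez 225164) and 9 further genes of the Notch pathway, *Mib2*, *Notch1*, *Notch2*, *Dll1*, *Jag1*, *Jag2*, *Hes1*, *Hey1* and *Rbpj*, were examined in sympathetic ganglia (SG) of mice exposed to cold. They were chosen by name, and 10 of 10 were matched to an Entrez identifier among the 17667 genes listed in at least 1 library. SG at the thoracic levels T1–T4, which supply interscapular brown fat, were profiled by RNA-seq in 4 libraries, each pooled from 6 C57BL/6 animals that were 12 weeks old and had spent 1 day at 5 °C. The groups were WT (2 libraries, labelled WT_1 and WT_2), TRKC+/- (1 library), haploinsufficient for *Ntrk3*, the gene of the neurotrophin 3 (NT-3) receptor TRKC, and AdNTF3-Tg (1 library), in which the adiponectin promoter drives the NT-3 transgene, so that it is made in adipocytes. The study gave each mutant its own WT controls, but the labels do not say which WT library belongs to which mutant, so each mutant library was compared with the mean of both and with each alone. The study had picked *Mib1* for its pattern in these same libraries, so its differences are given as a description.

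Notch signaling passes between neighboring cells. A ligand of the Jagged or Delta-like families on the sending cell must be ubiquitinated by a Mindbomb or Neuralized E3 ligase and internalized to pull on a Notch receptor, after which ADAM proteases and γ-secretase release the intracellular domain of the receptor. That domain joins the DNA-binding protein RBPJ in the nucleus and switches on Hes and Hey repressor genes. In the peripheral nervous system the pathway is known for holding neural crest progenitors back from neuronal differentiation and for favoring glial fates, and it also acts in vessel walls.

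Between 8665955 and 8894985 reads were counted on genes per library, and the floor used here, 3 reads, stood for 0.337 to 0.346 CPM (counts scaled to the library total). FPKM, the unit of the levels below, is the read count scaled to gene length and library reads. *Ntrk3*, the targeted gene, had 2.45 FPKM in WT_1, 2.52 in WT_2, 2.72 in the library labelled TRKC+/- and 2.32 in AdNTF3-Tg, so it was not lower in the library labelled TRKC+/- (0.13 on the log2 scale against the WT mean, −0.23 to 0.53, from 78 to 91 reads in these 3 libraries), which is named by its label throughout. The paper reports lower *Trkc* (*Ntrk3*) expression in SG of TRKC+/- mice, in measurements apart from these libraries. Which exons the mutant allele lacks is not given in the sources used here. *Ntf3* was listed with 2 reads in the library labelled TRKC+/- and not in the others. All 10 markers chosen for sympathetic neurons, *Th* and *Dbh* among them, were listed in every library and summed to between 9245 and 9906 FPKM. The sums were 695 to 890 FPKM for 10 glial, 57.3 to 64.7 for 10 endothelial, 92.7 to 118 for 8 pericyte and smooth muscle, 248 to 324 for 6 fibroblast, 101 to 139 for 6 macrophage and 304 to 494 for 8 adipocyte markers. The 8 skeletal muscle markers stood apart, with 99.9 FPKM in WT_1, 3.37 in WT_2, 46.0 in the library labelled TRKC+/- and 35.3 in AdNTF3-Tg. In these bulk samples, fewer cells of a type and less RNA per cell cannot be told apart.

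All 10 genes were detected in every library. By their mean over the 4 libraries, *Mib2* (20.6 FPKM) and *Jag2* (18.9) were highest, followed by *Hey1* (11.5), *Notch1* (9.15), *Rbpj* (8.06), *Hes1* (5.23), *Mib1* (4.67), *Notch2* (2.28), *Jag1* (2.26) and *Dll1* (0.46). Neighbors in this order whose ranges over the libraries overlapped were *Mib2* and *Jag2*, *Notch1* and *Rbpj*, *Hes1* and *Mib1*, and *Notch2* and *Jag1*, and the other neighbors did not overlap. *Dll1* was the lowest, with 7 to 22 reads per library, and each of the other 9 had at least 57 reads in every library.

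**Figure D1:**
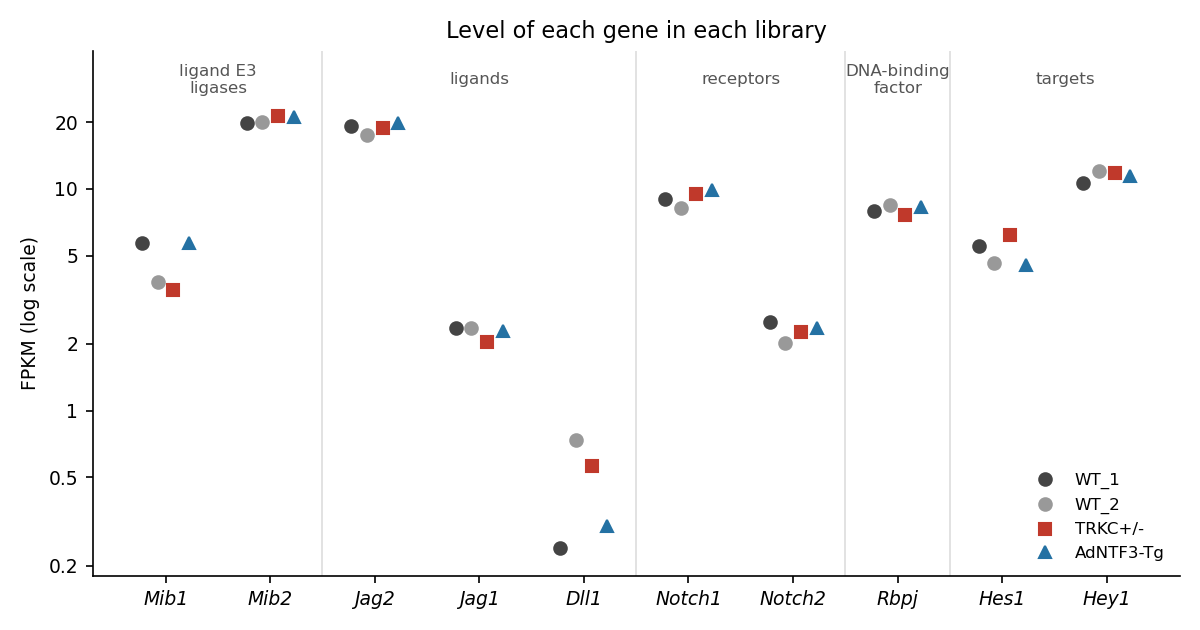
Level of the 10 genes in FPKM (log axis), grouped by role, with 1 point for each of the libraries WT_1, WT_2, TRKC+/- and AdNTF3-Tg. For most genes the 4 points lie close together, while *Mib1* splits into 2 high libraries (5.72 and 5.69 FPKM) and 2 low ones (3.79 and 3.49) and *Dll1* ranges from 0.24 to 0.74.

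*Mib1*, which encodes the E3 ligase Mindbomb 1 that most Notch ligands need in order to signal, lies on chromosome 18 from 10725625 to 10818578 (GRCm38). The WT mean was 4.76 FPKM ± 1.36 (SD, n = 2). *Mib1* had 5.72 FPKM (186 reads) in WT_1, 3.79 FPKM (125 reads) in WT_2, 3.49 FPKM (116 reads) in the library labelled TRKC+/- and 5.69 FPKM (187 reads) in AdNTF3-Tg. WT_1 and AdNTF3-Tg were thus the high libraries and WT_2 and the library labelled TRKC+/- the low ones, and the WT libraries bracketed AdNTF3-Tg. Differences between libraries are given as log2 ratios of (FPKM + 0.1), a scale on which low genes appear to change less than they do, and the study's cutoff of 0.5 was kept. The log2 fold change of *Mib1* against the mean of both WT libraries was −0.44 in the library labelled TRKC+/- (95% counting interval −0.77 to −0.13) and 0.25 in AdNTF3-Tg (−0.01 to 0.52). This interval, by the exact Clopper-Pearson method on the reads, covers counting error only. The result turned on the WT library used. Against WT_1 alone the values were −0.70 in the library labelled TRKC+/- (−1.07 to −0.38) and −0.01 in AdNTF3-Tg (−0.32 to 0.28), and against WT_2 alone they were −0.12 (−0.49 to 0.26) and 0.57 (0.25 to 0.93). WT_1 exceeded WT_2 by 0.58 (0.27 to 0.94), which was larger than either mutant's difference from the WT mean. A difference past the cutoff was found for 10.7% of all genes in the library labelled TRKC+/- and 13.9% in AdNTF3-Tg against WT_1 alone, and for 12.7% and 13.3% against WT_2 alone. The sum of the 8 skeletal muscle markers, given above, also differed between the WT libraries (99.9 and 3.37 FPKM), and its part in the values of *Mib1* was not tested.

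*Mib2*, on chromosome 4 from 155654468 to 155669254, encodes the related ligase Mindbomb 2. It had 19.88 FPKM in WT_1, 20.04 in WT_2, 21.37 in the library labelled TRKC+/- and 21.21 in AdNTF3-Tg. Both mutant libraries lay above both WT libraries, but by log2 fold changes of only 0.10 (counting interval −0.04 to 0.23) and 0.09 (−0.05 to 0.22). Per length, *Mib2* was 3.48 times as high as *Mib1* in WT_1, 5.29 times in WT_2, 6.12 times in the library labelled TRKC+/- and 3.73 times in AdNTF3-Tg, and *Mib1* made up between 14.0% and 22.3% of the summed FPKM of the pair.

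The ligand genes were dominated by *Jag2*, which encodes Jagged 2 and lies on chromosome 12 from 112907803 to 112929812. Of the summed FPKM of the 5 canonical ligands (*Jag1*, *Jag2*, *Dll1*, *Dll3* and *Dll4*), *Jag2* held between 80.6% and 85.4% in each library and *Jag1* between 9.09% and 10.9%. *Jag2* had 19.23 FPKM in WT_1, 17.49 in WT_2, 18.82 in the library labelled TRKC+/- and 19.92 in AdNTF3-Tg. The library labelled TRKC+/- lay between the WT libraries and AdNTF3-Tg just above both, at 0.04 (−0.10 to 0.17) and 0.12 (−0.02 to 0.25) on the log2 scale. *Jag1* (chromosome 2, 137081451 to 137116520), the gene of Jagged 1, had 2.37 FPKM in both WT libraries, 2.04 in the library labelled TRKC+/- and 2.28 in AdNTF3-Tg. The log2 fold change was −0.21 (−0.57 to 0.13) in the former and −0.05 (−0.40 to 0.28) in the latter mutant library. *Dll1* (chromosome 17, 15367354 to 15376932), the gene of Delta-like 1, had 7 reads in WT_1, 22 in WT_2, 17 in the library labelled TRKC+/- and 9 in AdNTF3-Tg. The lowest and the highest value were those of the WT libraries, whose log2 ratio was −1.30 (−3.09 to −0.34). *Dll1* in AdNTF3-Tg, at −0.56 (−1.96 to 0.42), was the only value of the 10 genes past the cutoff against the mean of WT. It was 0.23 against WT_1 and −1.07 against WT_2, and in the library labelled TRKC+/- the value was 0.16 (−0.75 to 1.12). Both intervals against the WT mean spanned 0.

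Of the receptors, *Notch1* held between 63.0% and 65.6% of the summed FPKM of *Notch1* to *Notch4*, *Notch2* between 15.2% and 17.6%, *Notch3* between 10.3% and 13.8% and *Notch4* between 7.34% and 8.89%. *Notch1* (chromosome 2, 26457902 to 26503822) had 8.96 FPKM (736 reads) in WT_1, 8.24 FPKM (689 reads) in WT_2, 9.49 FPKM (798 reads) in the library labelled TRKC+/- and 9.92 FPKM (825 reads) in AdNTF3-Tg. Both mutant libraries were above both WT libraries. Relative to the WT mean, *Notch1* was at 0.14 in the library labelled TRKC+/- (0.01 to 0.27) and 0.20 in AdNTF3-Tg (0.08 to 0.33), while WT_1 exceeded WT_2 by 0.12 (−0.03 to 0.28). Of the 10 genes, only *Notch1* had a counting interval that excluded 0 in AdNTF3-Tg, where 24.8% of all genes had such an interval, and in the library labelled TRKC+/- *Notch1* and *Mib1* did, where 16.2% of all genes had one. *Notch2* (chromosome 3, 98013538 to 98150367) had 2.50 FPKM in WT_1, 2.02 in WT_2, 2.26 in the library labelled TRKC+/- and 2.35 in AdNTF3-Tg, so that both mutant libraries lay within the WT pair.

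*Rbpj* (chromosome 5, 53555779 to 53657445), the gene of the DNA-binding partner of cleaved Notch, had 7.93 FPKM in WT_1, 8.43 in WT_2, 7.61 in the library labelled TRKC+/- and 8.26 in AdNTF3-Tg. Its log2 fold changes were −0.10 (−0.28 to 0.08) and 0.01 (−0.18 to 0.17). The expected counts of *Rbpj* were not whole in 3 libraries, as where reads are shared with a near-identical copy, and the division of those reads is uncertain. The target gene *Hes1* (chromosome 16, 30065357 to 30067796), a repressor that opposes neuronal differentiation, had 5.53 FPKM (69 reads) in WT_1, 4.62 FPKM (58 reads) in WT_2, 6.22 FPKM (79 reads) in the library labelled TRKC+/- and 4.56 FPKM (57 reads) in AdNTF3-Tg. It was highest in the library labelled TRKC+/- at a log2 fold change of 0.29 (−0.13 to 0.71), and AdNTF3-Tg was level with WT_2 at −0.15 (−0.64 to 0.30). *Hey1* (chromosome 3, 8663359 to 8667038), a target active in vessels and glia, had 10.64 FPKM in WT_1, 12.09 in WT_2, 11.82 in the library labelled TRKC+/- and 11.41 in AdNTF3-Tg. The WT libraries were its lowest and its highest value.

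RBPJ recognizes the core letters TGGGAA, which were searched on both strands (TGGGAA or TTCCCA) in the RefSeq windows (GRCm38.p6) from 250 bases before to 50 bases after the start site. Of the 10 genes, 7 had a window and were searched, and *Rbpj* alone among these 7 held the letters. *Mib1*, *Hes1* and *Hey1* had no window and were not searched. They were present for 18 of the 51 other pathway genes with a window (35.3%) and for 28.3% of 27025 genes. The 250 bases upstream of *Rbpj* and of the target *Hes5* are shown because the former is the only match among the 7 genes searched and the latter had the larger log2 difference of the 2 pathway targets past the cutoff in AdNTF3-Tg. Capitals mark the searched letters, which lie 149 and 65 bases before the start site of 1 of the *Rbpj* windows (chr5:53590096-53590345, plus strand) and 226 and 82 bases before it in *Hes5* (chr4:154960673-154960922, plus strand). A match describes the sequence and does not show that RBPJ binds there.
Rbpj: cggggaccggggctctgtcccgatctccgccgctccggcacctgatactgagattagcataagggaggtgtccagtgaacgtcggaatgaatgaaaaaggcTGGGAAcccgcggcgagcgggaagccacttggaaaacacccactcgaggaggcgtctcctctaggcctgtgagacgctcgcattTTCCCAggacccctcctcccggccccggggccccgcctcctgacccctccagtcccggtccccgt
Hes5: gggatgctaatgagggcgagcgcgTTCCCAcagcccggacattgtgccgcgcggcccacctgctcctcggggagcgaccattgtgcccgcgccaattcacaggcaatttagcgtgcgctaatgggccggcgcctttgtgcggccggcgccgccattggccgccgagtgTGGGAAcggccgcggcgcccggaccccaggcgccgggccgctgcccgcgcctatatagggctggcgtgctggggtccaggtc

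**Figure D2:**
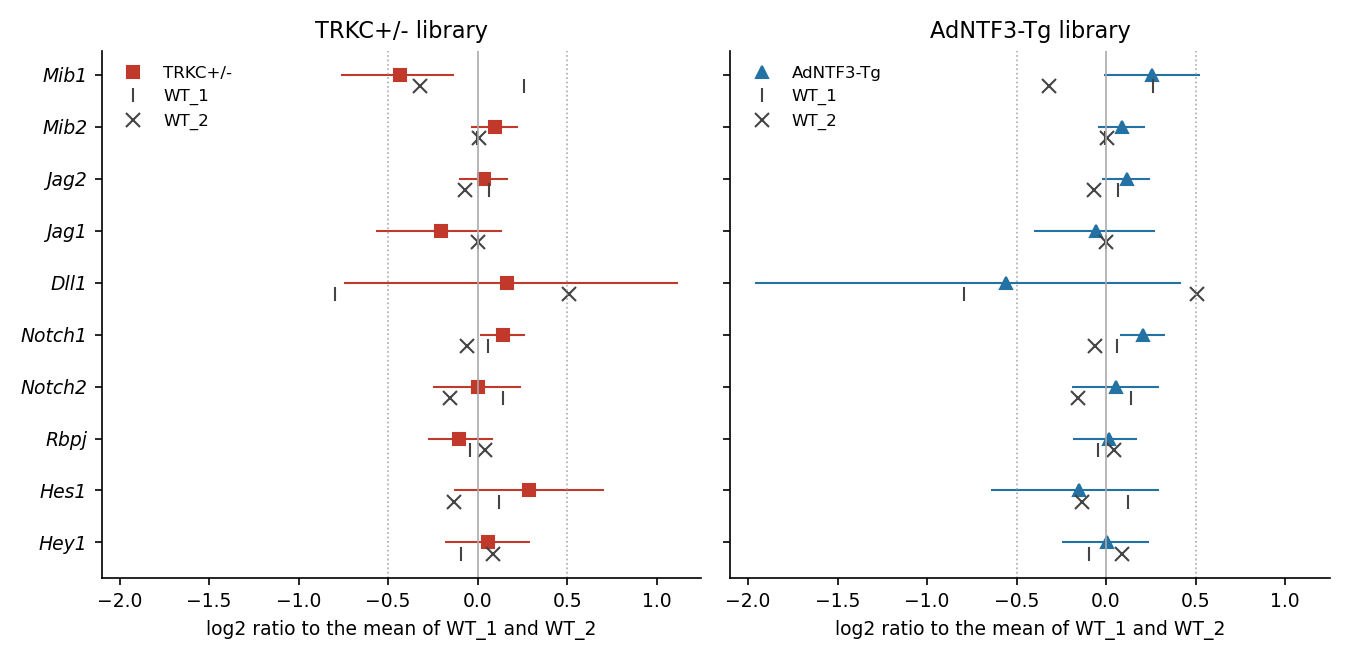
Log2 ratio of the library labelled TRKC+/- (left, squares) and of AdNTF3-Tg (right, triangles) to the mean of WT_1 and WT_2 for the 10 genes, with lines for the 95% counting interval, a bar and a cross for WT_1 and WT_2 themselves, and dotted lines at the cutoff of 0.5. For *Mib1* and *Dll1* the WT libraries lie 0.58 and 1.30 apart. Of the mutant values, only *Dll1* in AdNTF3-Tg (−0.56) is past the cutoff, and *Mib1* lies within it in both panels.

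Against the mean of WT, 0 of the 10 genes passed the cutoff in the library labelled TRKC+/-, where 8.56% of the 15275 genes listed in all 4 libraries did, and 1 (*Dll1*) in AdNTF3-Tg, where 11.0% of all genes did. The counts depended on the WT library. Against WT_1 alone they were 2 in the library labelled TRKC+/- (*Mib1* and *Dll1*) and 0 in AdNTF3-Tg, and against WT_2 alone 0 and 2 (*Mib1* and *Dll1*). Between the WT libraries 2 of the 10 (*Mib1* and *Dll1*) differed by as much, where 13.4% of all genes did. None of the 10 passed the cutoff in the same direction against both WT_1 and WT_2, which 4.27% of all genes did in the library labelled TRKC+/- and 5.70% in AdNTF3-Tg. The median log2 fold change of the 10 genes was 0.05 in the library labelled TRKC+/- and 0.03 in AdNTF3-Tg, and over all genes both medians were 0.00. The library labelled TRKC+/- lay outside the WT pair for 6 of the 10 genes and AdNTF3-Tg for 5, against 62.6% and 67.6% of all genes. A fit of edgeR's quasi-likelihood test to all 4 libraries, which takes its only residual degree of freedom from the WT pair and assumes that the mutant libraries vary likewise, called 0 of the 10 genes in either comparison. The smallest adjusted p among them was 0.999 for the library labelled TRKC+/- and 0.817 for AdNTF3-Tg (*Notch1*), and 0 had an unadjusted p under 0.05 by edgeR or by DESeq2. Over all 14156 genes tested, edgeR called 1 gene (0.00706%) in the library labelled TRKC+/- and 0 in AdNTF3-Tg, with 273 and 832 at an unadjusted p under 0.05. DESeq2, on 17619 genes, called 2 (0.0114%) and 0, with 21 and 64 at that level.

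Of the 9 genes with at least 50 reads in every library, *Mib1* had the widest range over the 4 libraries, and *Dll1*, with fewer reads, ranged more widely (1.30 on the log2 scale). The highest value of *Mib1* was 1.62 times the lowest on the scale with 0.1 FPKM added, a log2 range of 0.70, and 2.37% of the 10971 genes with at least 50 reads in every library had a range as wide. The median log2 range of those genes was 0.24, and *Mib2* (0.10), *Rbpj* (0.15), *Hey1* (0.18), *Jag2* (0.19) and *Jag1* (0.21) were below it, while *Notch1* (0.26), *Notch2* (0.29) and *Hes1* (0.44) were above it. Since *Mib1* was picked by the study for its differences between these libraries, its range is not independent of that choice.

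The 5 genes whose values over the 4 libraries were closest to those of *Mib1*, by Euclidean distance between log2(FPKM + 0.1) values centered on each gene's own mean, were *Tmem178b* (distance 0.10), *Uhmk1* (0.11), *Itgb8* (0.13), *Trip11* (0.16) and *Cpeb4* (0.18). Only 4 values per gene were compared over 10971 genes, and *Uhmk1* and *Trip11* were picked by the study beside *Mib1* on these libraries. *Itgb8*, the integrin β8 gene, had 6.84 FPKM in WT_1, 5.07 in WT_2, 4.51 in the library labelled TRKC+/- and 6.82 in AdNTF3-Tg. *Cpeb4*, which encodes a protein that binds the tails of mRNAs and sets their translation, had 16.14, 12.83, 10.62 and 17.29 FPKM in the same order. In both genes, as in *Mib1*, WT_1 and AdNTF3-Tg were the high libraries, which follows from their choice by closeness to *Mib1*.

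**Figure D3:**
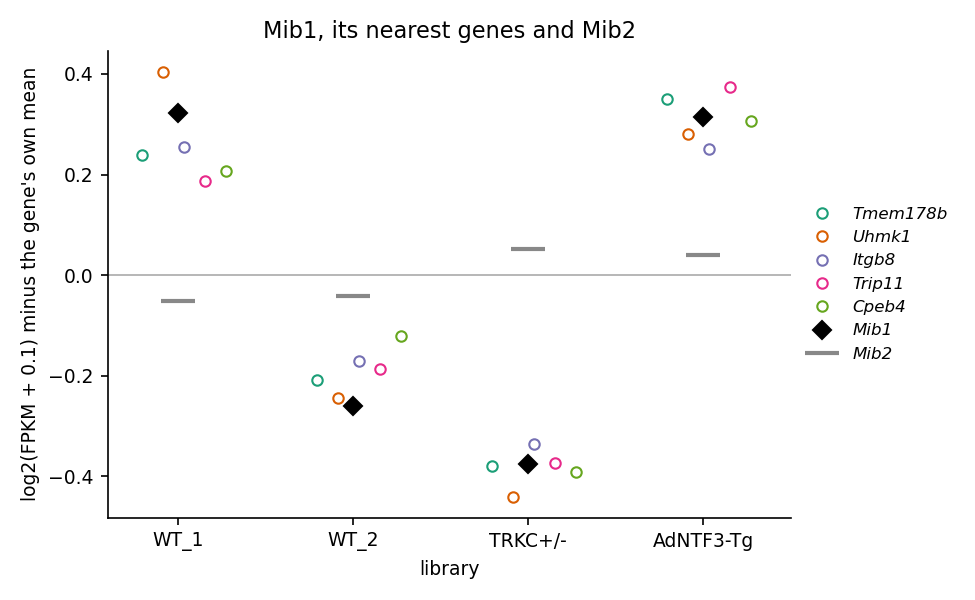
Log2(FPKM + 0.1) of *Mib1* (diamonds), its 5 closest genes (circles) and *Mib2* (bars), each minus the mean of that gene, in the 4 libraries. *Mib1* and its closest genes are above their mean in WT_1 and AdNTF3-Tg and below it in WT_2 and TRKC+/-. The closest genes share this because they were chosen for it. *Mib2* stays within a log2 range of 0.10.

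The rest of the pathway was described from a list of 62 genes, of which 59 were listed in all 4 libraries and 54 had at least 20 reads in each. In the library labelled TRKC+/- 1 of the 59 passed the cutoff upward and 0 downward, where 3.48% and 5.09% of all genes did, and in AdNTF3-Tg 1 passed upward and 3 downward, where 4.01% and 6.95% of all genes did. The median log2 fold change of the 59 genes was 0.09 and 0.03. Among genes with at least 20 reads in each library, *Neurl1b*, a Neuralized E3 ligase, had 0.67 FPKM (36 reads) in WT_1, 0.50 FPKM (27 reads) in WT_2, 1.06 FPKM (58 reads) in the library labelled TRKC+/- and 0.78 FPKM (42 reads) in AdNTF3-Tg. Both mutant libraries exceeded both WT libraries, and the library labelled TRKC+/- stood 0.76 (0.32 to 1.40) above the WT mean on the log2 scale. The target *Hes5*, another repressor of neuronal differentiation, had 4.24 FPKM (45 reads) in WT_1, 3.75 FPKM (40 reads) in WT_2, 5.18 FPKM (56 reads) in the library labelled TRKC+/- and 2.36 FPKM (25 reads) in AdNTF3-Tg. It was highest in the library labelled TRKC+/- (0.37, −0.14 to 0.88) and lowest in AdNTF3-Tg (−0.74, −1.48 to −0.12). The target *Heyl*, known from smooth muscle and sensory neurons, had 2.26 FPKM (88 reads) in WT_1, 2.12 FPKM (84 reads) in WT_2, 1.76 FPKM (70 reads) in the library labelled TRKC+/- and 1.5 FPKM (59 reads) in AdNTF3-Tg. Both mutant libraries were below both WT libraries, at −0.30 (−0.74 to 0.09) and −0.52 (−1.0 to −0.12) on the log2 scale. In AdNTF3-Tg *Heyl* was at −0.56 against WT_1 alone and at −0.47, within the cutoff, against WT_2 alone, while *Hes5* was at −0.82 and −0.65. The list groups 7 Hes and Hey genes as targets by their family, and whether Notch drives each of them here was not tested. Of these 7, 4 were listed in all libraries. The 2 besides *Hes5* and *Heyl* were *Hes6* and *Hey2*, named after their values were seen, at −0.08 and −0.07 in AdNTF3-Tg. In the library labelled TRKC+/- *Hes6* was at 0.27 (0.05 to 0.48), above both WT libraries, and *Hey2* at −0.04. Beside *Hes5* and *Heyl*, the 8 pericyte and smooth muscle markers summed to 118 FPKM in WT_1, 93.8 in WT_2, 108 in the library labelled TRKC+/- and 92.7 in AdNTF3-Tg, the 10 glial markers to 890, 695, 857 and 814 FPKM, and the 8 adipocyte markers to 494, 421, 304 and 351 FPKM. The smooth muscle sum lay between the WT libraries in the library labelled TRKC+/- and below both in AdNTF3-Tg. The glial sum lay between them in both mutant libraries, and the adipocyte sum below both. Of the 8 adipocyte markers, 2 were above the WT mean in the library labelled TRKC+/- and 1 in AdNTF3-Tg. The part of these cells in the values of the targets was not tested. The edgeR fit gave adjusted p values of 0.999 for *Neurl1b* in the library labelled TRKC+/- and 0.817 for both *Hes5* and *Heyl* in AdNTF3-Tg, and it called 0 of the 58 pathway genes it tested, with 2 and 3 at an unadjusted p under 0.05. DESeq2 called 0 of 61, with 0 at that level.

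The remaining 2 genes past the cutoff in AdNTF3-Tg, named after their values were seen, rested on few reads. The ligand gene *Dll3* had 13, 9, 9 and 3 reads in WT_1, WT_2, the library labelled TRKC+/- and AdNTF3-Tg. *Mfng*, which encodes a glycosyltransferase that alters the choice of ligand, had 13, 22, 15 and 32 reads. *Adam10*, the protease of the cut outside the membrane, had 14.38 to 17.09 FPKM with log2 fold changes of 0.00 and 0.07. Of the 10 protease genes, 0 passed the cutoff in either comparison, as did 0 of the 7 co-activators, 0 of the 12 co-repressors and 0 of the 12 inhibitors and turnover genes. With 8.56% of all genes past it in the library labelled TRKC+/- and 11.0% in AdNTF3-Tg, lists this short cannot be set apart from that background. The co-activator *Maml1* was at 0.09 and −0.12, the inhibitor *Numb* at 0.04 and 0.06, and *Nrarp*, a target whose product limits Notch signaling, at 0.04 and 0.12. *Notch3* (1.46 to 1.92 FPKM), the receptor of vessel walls, was at 0.22 and 0.08, *Notch4* (1.00 to 1.26 FPKM), an endothelial receptor, at 0.05 and −0.02, and the endothelial ligand gene *Dll4* (16 to 27 reads) at −0.47 and −0.18. The expected counts of the paralogs *Aph1b* and *Aph1c* were not whole, so the division of reads between them is uncertain.

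**Figure D4:**
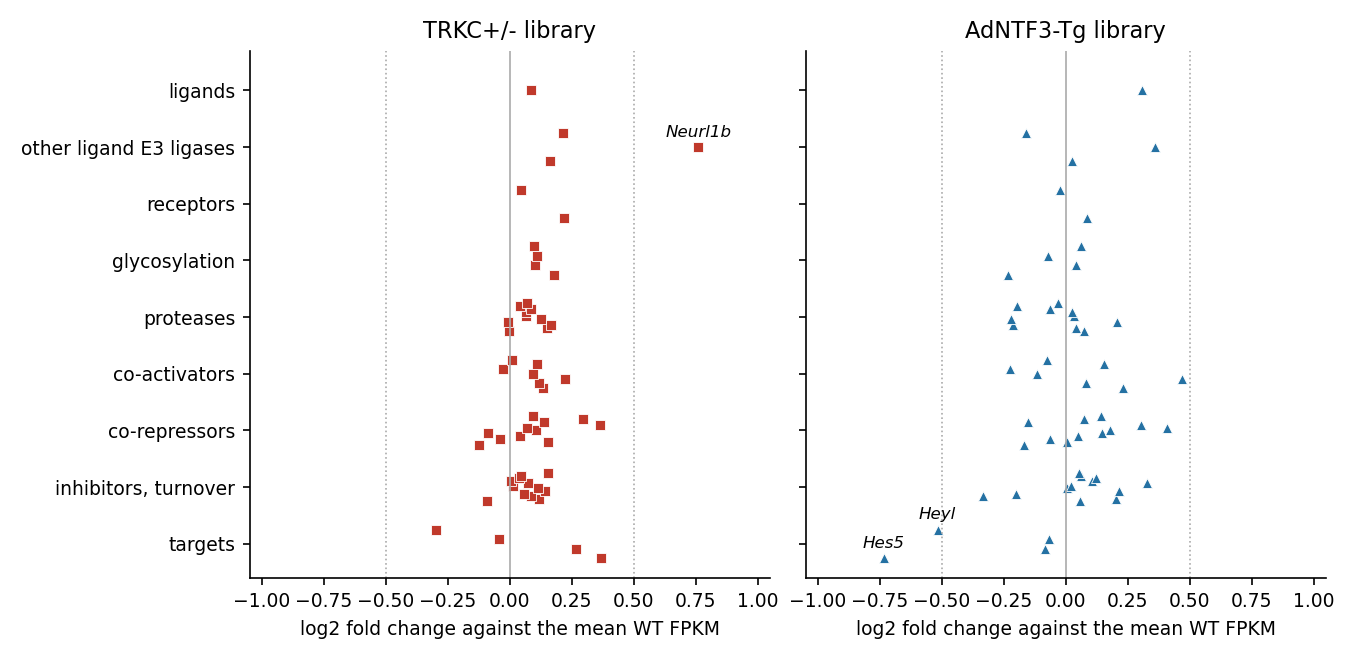
Log2 fold change against the mean of WT for the 54 other pathway genes with at least 20 reads in every library, by role (rows), in the library labelled TRKC+/- (left) and AdNTF3-Tg (right), with 1 point per gene and dotted lines at the cutoff of 0.5. All genes except *Neurl1b* (0.76, left) and *Hes5* (−0.74) and *Heyl* (−0.52, right) lie within the cutoff.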

How the data were processed

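RNA-seq was measured in 4 libraries of SG, each pooled from 6 mice. Per the paper's methods, mRNA was enriched with oligo(dT), sequenced as single-end reads, filtered with SOAPnuke and mapped with HISAT2 to mm9. The submitters' processing notes name RSEM and mm10. The deposited tables hold, for each Entrez gene, an expected count of reads, not normalized, of which between 92.7% and 93.8% per library were whole, and an FPKM value, made by the authors from that count, the gene length and the library's reads. They hold no coordinates, and the strand setting is not given in the sources used here. Symbols and GRCm38 positions came from a RefSeq table, which matched 17619 of 17667 identifiers (99.7%).

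Genes without reads are not listed, and 15275 were listed in all 4 libraries. Folds of FPKM used a pseudocount of 0.1 and the study's cutoff of 0.5. Intervals were exact Clopper-Pearson at 95% on rounded expected counts, and intervals and floors cover counting error only. With 1 library per mutant genotype the folds have no replicate check, and the WT libraries are pools, so p-values measure only the spread between these samples, which may be technical. edgeR (4.0.16, TMM, low counts filtered) and DESeq2 (1.42.0) were run on rounded expected counts in 1 fit of 3 groups, adjusted by Benjamini-Hochberg over all genes. Methods were tested on simulated data with planted changes larger than most of those given here, so these tests do not show how well small differences are detected. Besides the 10 genes, *Ntrk3* and *Ntf3*, the rule named pathway genes past the cutoff with at least 20 reads in every library, 10 fixed pathway genes, of which 1 is not reported here, and the 5 genes closest to *Mib1* among those with at least 50 reads in every library. The genes and lists were chosen with earlier results of these data known. Alternatives were pseudocounts of 1 and 0.01, a mean of at least 1 FPKM, missing genes as 0, rescaled counts with a prior count of 2, centering, each WT library alone and a cutoff of 1.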

Additional observations from a re-analysis of the deposited data

How the results depend on the processing

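Apart from leaving out a WT library, 138 values of single genes were recomputed. Of these, 128 moved by no more than the spread between the WT libraries (the SD of their log2 values). Only 1 changed its side of the cutoff, *Dll1* in AdNTF3-Tg, at −0.20 with a pseudocount of 1. Part of the 138 could not move. All 10 genes were listed in every library, the filter on the mean only removes genes, and the median over all genes was 0 in the library labelled TRKC+/-. The spread was widest for *Dll1* and 0 for *Jag1*, so the count of 128 does not measure robustness. With 1 WT library left out, *Mib1* and *Dll1* crossed the cutoff, values under the cutoff changed sign for *Hey1* in both mutant libraries, *Dll1* and *Jag2* in the library labelled TRKC+/- and *Mib1*, *Notch2* and *Rbpj* in AdNTF3-Tg, and *Dll1* in AdNTF3-Tg was −1.07 without WT_1 and reversed to 0.23 without WT_2. The number of the 10 genes past the cutoff ranged from 0 to 2 in each comparison when 1 WT library was left out, and in AdNTF3-Tg it fell from 1 to 0 with a pseudocount of 1, a mean FPKM of 1 or more or a cutoff of 1. Between the WT libraries it fell from 2 to 0 with a pseudocount of 1 and to 1 with a mean FPKM of 1 or more. Over all genes, 1308 in the library labelled TRKC+/- and 1674 in AdNTF3-Tg passed the cutoff, which became 269 and 404 with a pseudocount of 1, 427 and 691 among genes averaging 1 FPKM or more, 2602 and 2996 with missing genes as 0, and 292 and 367 with a cutoff of 1. The pathway count of 1 in the library labelled TRKC+/- became 0 with a pseudocount of 1, a mean FPKM of 1 or more or a cutoff of 1, 3 with a pseudocount of 0.01 or missing genes as 0, 2 with TMM-scaled counts, and 3 to 4 with 1 WT library left out. The count of 4 in AdNTF3-Tg became 2 with a pseudocount of 1, 1 with a cutoff of 1 and 4 to 7 with 1 WT library left out. The 1 gene called by edgeR in the library labelled TRKC+/- became 2 with DESeq2's size factors, 0 without the filter and 2 with DESeq2. The cause of these changes was not tested. The median over the 10 genes moved by less than the WT spread under all 9 settings. It lay between 0.026 and 0.046 in the library labelled TRKC+/- and between 0.026 and 0.054 in AdNTF3-Tg. These medians are smaller than that spread, so the check is a weak one. Genes with few reads, such as *Dll1*, set the limit of depth here. No paired analysis was possible because the mutant libraries carry no replicate number and the labels tie neither to a WT library.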
